A study of Mus musculus with 7 samples.

Results

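The genes described here break down the amino acid tryptophan or act on its products, and were measured by bulk RNA-seq in mouse pancreatic ductal adenocarcinoma (PDA) tumors with and without edited *Krt19*. They are *Ido1*, *Ido2*, *Tdo2*, *Kmo*, *Kynu*, *Haao*, *Wars*, *Il4i1* and *Ahr*, found by symbol as 9 of the 38026 rows of the deposited table. The 7 tumors grew under the skin of C57BL/6 mice for 2 weeks from cells of the line 1242, which came from a tumor of a KPC mouse, a genetic model of PDA whose alleles include a mutant *Trp53* in pancreatic epithelium. In 4 of them, sgScramble replicates 1 to 4, the cells carried Cas9 and a scrambled guide, and in 3, sgKrt19 replicates 5, 6 and 8, they carried Cas9 and a guide against *Krt19*. None was treated, and the cells of both groups had been transduced with a lentivirus and selected with puromycin. The study made polyclonal lines and single-cell clones, and the labels do not say which line or guide formed these tumors, so *Krt19* loss and other differences between the lines cannot be told apart. The labels do not state outright that each library came from a separate mouse, so p-values measure the spread between these libraries.

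Tryptophan is an essential amino acid, and most of it that is not built into protein is broken down along the kynurenine route. IDO1, IDO2 and TDO2 open its indole ring. KMO, KYNU and HAAO carry kynurenine on toward NAD, and kynurenine and other tryptophan products bind the aryl hydrocarbon receptor AHR, a transcription factor. In tumors IDO1 is known as an enzyme induced by interferon gamma that deprives T cells of tryptophan. WARS, the tRNA synthetase that charges tryptophan, is induced by the same cytokine, and IL4I1 is a secreted oxidase that turns tryptophan into other ligands of AHR.

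Values are normalized read counts, that is, reads per gene divided by a size factor for the library, and errors after ± are SDs. Libraries held 40781199 to 44972100 reads, and the worth of 3 reads, taken as the floor of detection, was 2.74 to 3.47. *Krt19* itself was 17841 to 27618 in sgScramble and 1606 to 2470 in sgKrt19 tumors. Skeletal muscle RNA stood apart between the libraries: the summed level of 4 muscle genes was 26.9 to 39.9 in sgScramble replicates 1, 2 and 4, 1568 in replicate 3, and 11764 to 19303 in the sgKrt19 tumors. The 9 genes were chosen by their role and with the difference of *Ido1* and others between these same sgScramble and sgKrt19 libraries known, so their differences are given as a description with no p-value.

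*Ido1*, *Wars*, *Kmo* and *Kynu* were higher in the sgKrt19 tumors and *Ahr* was lower, while *Ido2*, *Haao* and *Il4i1* overlapped between the groups and *Tdo2* was low in every library. A gene was tested if its value reached 10 in at least 3 libraries, which 8 of the 9 did, and limma called a gene at an adjusted p under 0.05. It called 5 of the 8, 4 higher and 1 lower, where it called 34.0% of the 21322 genes tested, 17.9% higher and 16.0% lower. The groups did not overlap for 5 of the 8, with all sgKrt19 libraries above for 4 and below for 1, beside 41.1% of all tested genes, 21.7% above and 19.3% below. Without sgScramble replicate 3, the control with the most muscle RNA, 5 of the 8 were called. That fit cannot separate muscle RNA from group, since every sgKrt19 tumor held far more of it than the remaining controls. Nothing is read from these counts, since the choice of genes used this comparison. Scaling by library size alone shifted the median log2 fold change of all genes to −0.21, and 27.5% of its calls over all genes were higher, against 52.8%, but it called the same number of these genes, 5. In bulk tumors, more cells of a type and more RNA per cell cannot be told apart.

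**Figure D1:**
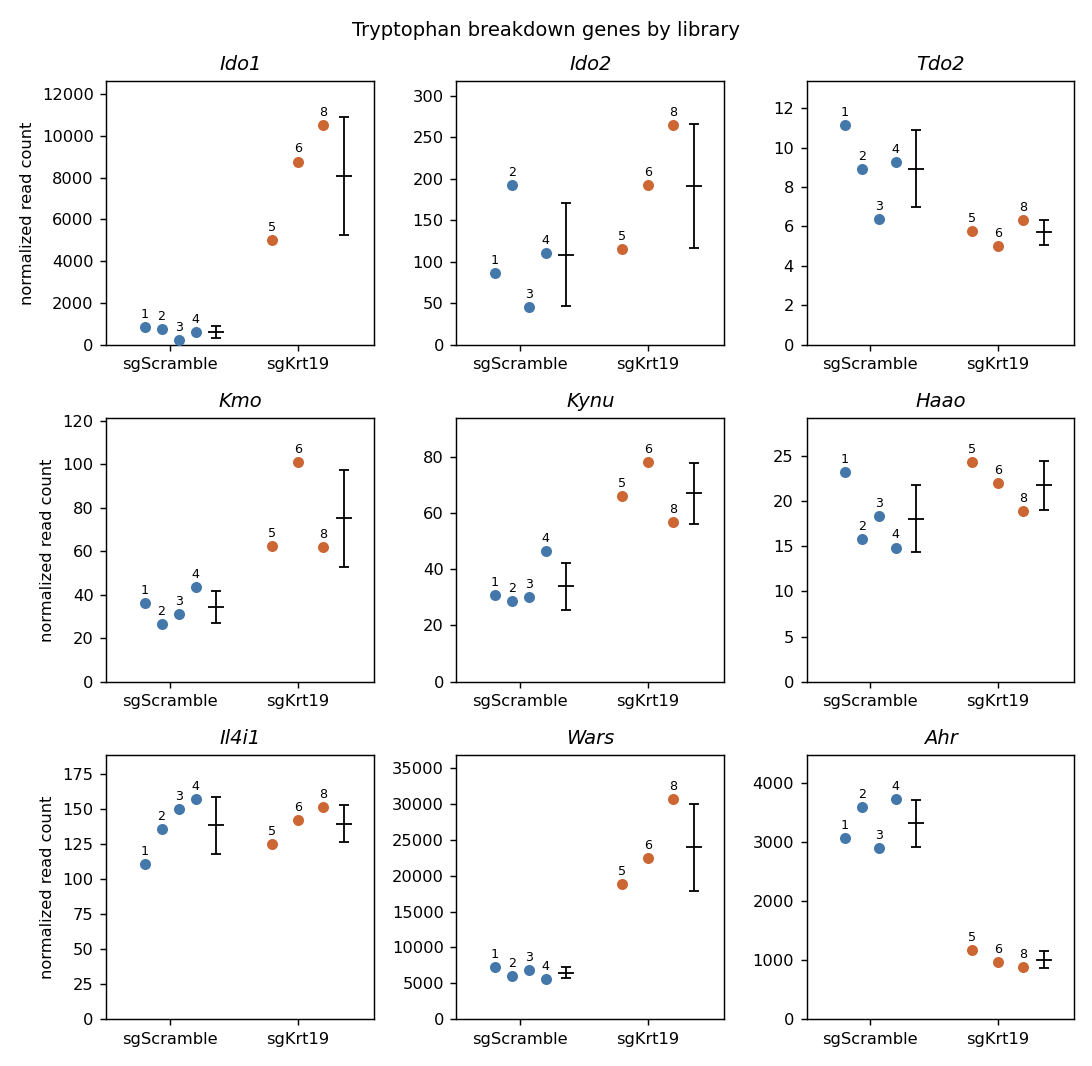
Normalized read count of each of the 9 genes in each library, with replicate numbers above the points and the mean ± SD of each group to the right (n = 4 and n = 3). Each axis starts at 0 and has its own scale. *Ido1* was 217 to 842 in sgScramble and 4993 to 10525 in sgKrt19 tumors, and *Ahr* fell from 2888 to 3718 down to 885 to 1164.

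Of the genes of the first step, *Ido1* (ENSMUSG00000031551.12) spans 24584136 to 24597009 of chromosome 8, minus strand, in GRCm38. It measured 842, 756, 217 and 612 in sgScramble replicates 1 to 4. In sgKrt19 replicates 5, 6 and 8 it measured 4993, 8774 and 10525. Every sgKrt19 tumor lay far above every control, and the spread within each group was wide, with replicate 3 the lowest control. The means were 607 ± 277 (n = 4) and 8097 ± 2827 (n = 3), a ratio of 13.3. Of the tested genes 117 had a larger rise, a description only, since *Ido1* was chosen with its difference known. The log2 fold change was 3.84 (SE 0.425). Without sgScramble replicate 3 it was 3.40, the lowest of the 15 alternative settings.

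*Ido2*, a less active paralog of *Ido1*, lies next to it on the same strand (chromosome 8 at 24531892 to 24576333), with 7802 bases between the genes. It measured 86.4, 193, 44.8 and 110 in the controls and 116, 192 and 265 in the sgKrt19 tumors. The groups overlapped, since control replicate 2 held as much as sgKrt19 replicate 6. The log2 fold change was 0.91 (SE 0.438), and leaving out sgScramble replicate 2 took it to 1.25 and into the called genes. It was 0.56 without sgScramble replicate 3 and 0.64 without sgKrt19 replicate 8. *Tdo2*, the dioxygenase best known from liver, measured 11.1, 8.89, 6.39 and 9.27 in the controls and 5.78, 5.0 and 6.30 in the sgKrt19 tumors. Though every library was above the floor of 3 reads, too few reached a value of 10 for it to be tested.

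Levels of different genes can be compared only per length. Per kilobase of merged exons, *Ido1* stood at 333 ± 152 (n = 4) normalized reads in sgScramble and 4437 ± 1549 (n = 3) in sgKrt19 tumors. *Ido2* stood at 29.9 ± 17.1 and 52.5 ± 20.5, and *Tdo2* at 2.30 ± 0.504 and 1.47 ± 0.169. *Ido1* therefore made up 88.2% to 94.5% of the summed level of the 3 genes in the controls and 98.7% to 98.9% in the sgKrt19 tumors. The ratio of *Ido1* to *Ido2* per kilobase was 7.82 to 19.4 in the controls and 79.2 to 91.0 in the sgKrt19 tumors.

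**Figure D2:**
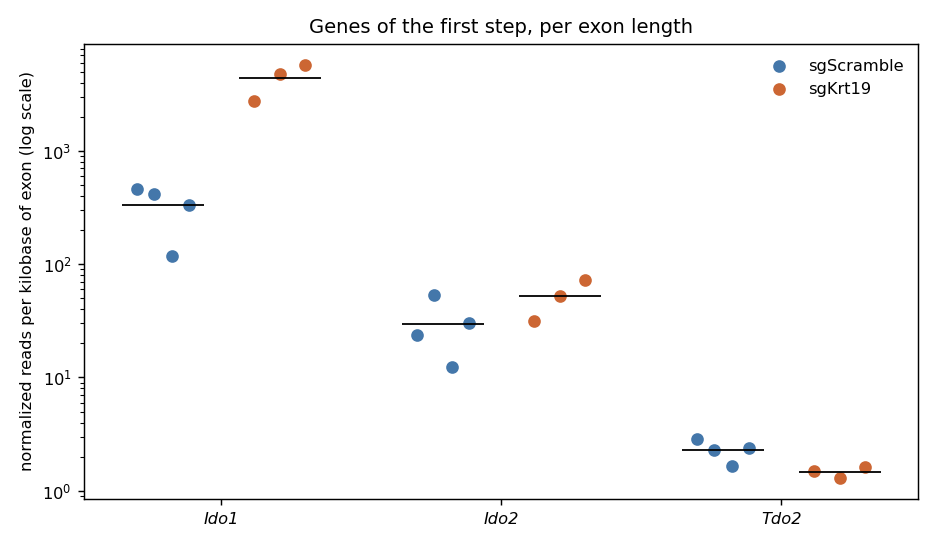
Normalized reads per kilobase of exon for *Ido1*, *Ido2* and *Tdo2* in each library, on a log axis, with a bar at each group mean (n = 4 sgScramble, n = 3 sgKrt19). *Ido1* was the highest of the 3 in every library, and its groups stand apart, at 119 to 462 and 2736 to 5767.

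The genes that carry kynurenine onward were expressed at far lower levels. *Kmo*, kynurenine 3-monooxygenase (chromosome 1 at 175620381 to 175662116, plus strand), measured 36.2, 26.7, 31.1 and 43.6 in sgScramble tumors. It measured 62.4, 101 and 62.0 in sgKrt19 tumors, all above the highest control. The log2 fold change was 1.09 (SE 0.268), a ratio of means of 2.19.

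*Kynu*, kynureninase (chromosome 2 at 43555329 to 43682715, plus strand), measured 30.7, 28.7, 30.1 and 46.4 in the controls and 65.9, 78.0 and 56.7 in the sgKrt19 tumors. Again each sgKrt19 tumor exceeded each control, and the log2 fold change was 0.97 (SE 0.250). Without sgKrt19 replicate 6, the highest library, it was 0.86 and was no longer called. *Haao*, which acts last of these 3 (chromosome 17 at 83831156 to 83847963, minus strand), measured 23.2, 15.8, 18.3 and 14.8 in the controls and 24.3, 22 and 18.9 in the sgKrt19 tumors. These ranges overlapped, and the log2 fold change was 0.27 (SE 0.281).

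Levels of *Ido1* against the later genes can be set side by side in the same way. Per kilobase, *Ido1* was 18.1 to 73.3 times *Kmo* in the controls and 207 to 440 times *Kmo* in the sgKrt19 tumors. Against *Kynu* the ratios were 24.3 to 92.6 and 255 to 625.

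The promoter of *Kmo* is shown as that of the 1 raised gene of the route for which the RefSeq promoter table (GRCm38.p6) gave a sequence. The table holds *Kmo*, *Tdo2*, *Il4i1* and *Haao*, 4 of the 9 genes, and not *Ido1*, *Ido2*, *Kynu*, *Wars* or *Ahr*. The bases are the 250 before the RefSeq start, chr1:175631943-175632192, plus strand, which lies inside the longer GENCODE gene model.
Kmo: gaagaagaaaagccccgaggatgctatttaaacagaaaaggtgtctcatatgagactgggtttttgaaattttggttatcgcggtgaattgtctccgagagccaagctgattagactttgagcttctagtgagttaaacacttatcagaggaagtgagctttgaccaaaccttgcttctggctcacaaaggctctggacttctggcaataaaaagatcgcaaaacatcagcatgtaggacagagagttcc
Both strands of the 300-base windows, 250 bases before to 50 after the start, were searched for TTCNNNGAA (the gamma-activated site, GAS), the ISRE (GAAA, any 2 bases and GAAA again, read by interferon regulatory factors) and GCGTG (the core letters read by AHR with ARNT). Of the 32851 windows in the table, 8.30% hold the first, 3.44% the second and 32.4% the third. Neither of the first pair is in the windows of the 4 genes, and GCGTG is in those of *Tdo2* and *Haao*. That these letters are not in a window says nothing of the factor.

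*Wars* (ENSMUSG00000021266.16, chromosome 12 at 108860030 to 108894174, minus strand) had the highest level per length of the 9 genes in both groups. It measured 7300, 6033, 6857 and 5607 in sgScramble tumors and 18775, 22414 and 30681 in sgKrt19 tumors. All 3 sgKrt19 libraries exceeded the highest control by more than the whole range of the controls. The means were 6449 ± 769 (n = 4) and 23957 ± 6101 (n = 3), with a log2 fold change of 1.87 (SE 0.172).

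*Wars* was set beside 20 other aminoacyl-tRNA synthetase genes, whose enzymes load amino acids onto their tRNAs. Among them is *Wars2*, the mitochondrial synthetase that also charges tryptophan. Of the 20, limma called 11 higher and 0 lower, beside 17.9% higher and 16.0% lower of all tested genes, and 9 did not pass. Their log2 fold changes ran from −0.32 to 0.61 with a median of 0.34, where the median of all tested genes was 0.0072, and that of *Wars* lay outside this range. *Kars*, for lysine, rose from 6511 ± 348 to 9948 ± 503 (0.61 ± 0.102 SE in log2, adjusted p = 0.00169 by limma). *Farsb*, a subunit for phenylalanine, rose by 0.60 (SE 0.126, adjusted p = 0.00607 by limma), *Aars*, for alanine, by 0.53 (SE 0.122, adjusted p = 0.00881 by limma) and *Vars*, for valine, by 0.48 (SE 0.149, adjusted p = 0.0316 by limma). *Wars2*, named after its value was seen, had a log2 fold change of −0.32 (adjusted p = 0.0611 by limma). With library size as the only scaling, 1 was called higher and 1 lower, *Farsb*, *Aars* and *Vars* were not called, and the median was 0.12. Without sgKrt19 replicate 6 the calls numbered 4, without replicate 8 they numbered 6, and without sgScramble replicates 2, 3 or 4 they numbered 5, 7 and 5, and *Vars* was not called without sgScramble replicates 1, 2 or 4 or sgKrt19 replicates 6 or 8.

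**Figure D3:**
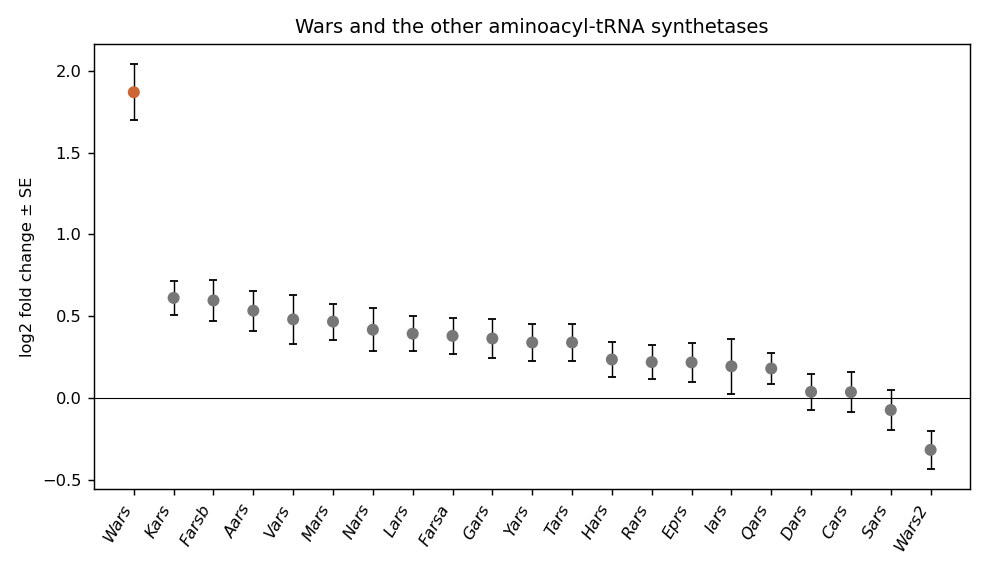
Log2 fold change (sgKrt19 against sgScramble) with its SE for *Wars*, in orange, and the 20 other aminoacyl-tRNA synthetases, in grey, in order of size. *Wars* stands at 1.87 and the others between −0.32 and 0.61.

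*Il4i1* (chromosome 7 at 44816387 to 44840809, plus strand) measured 111, 135, 150 and 157 in the controls and 125, 142 and 151 in the sgKrt19 tumors. The sgKrt19 values lay within the range of the controls. The log2 fold change was 0.02 (SE 0.180), and its sign was negative with library size as the only scaling (−0.19), without sgScramble replicate 1 (−0.081) and without sgKrt19 replicate 8 (−0.040). In the annotation 83.9% of its exon bases overlap exons of *Tbc1d17* on the opposite strand, and whether the counting used strand is not given in the sources used here. *Tbc1d17* measured 1041 to 1535 over the 7 libraries, and *Il4i1* was 8.97% to 13.6% of that level.

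*Ahr* (ENSMUSG00000019256.17, chromosome 12 at 35497974 to 35535038, minus strand) went the other way. It measured 3054, 3583, 2888 and 3718 in sgScramble tumors and 1164, 957 and 885 in sgKrt19 tumors. Each sgKrt19 library was below the lowest control by more than the control range. The means were 3311 ± 402 (n = 4) and 1002 ± 145 (n = 3), a 3.30-fold lower level with a log2 fold change of −1.72 (SE 0.134). Of the tested genes 517 had a larger fall, a description only, since the choice of genes used this comparison. Per kilobase, *Ido1* was 0.254 to 0.932 times *Ahr* in the controls and 14.5 to 40.1 times *Ahr* in the sgKrt19 tumors.

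Partners and textbook targets of AHR were mixed. Of 10 listed genes, 9 were in the table (*Cyp1a2* was not analysed here) and 8 were tested. Limma called 2 higher and 3 lower, with a median log2 fold change of −0.40. Among all tested genes it called 17.9% higher and 16.0% lower. *Arnt*, the partner with which AHR binds DNA, fell from 3155 ± 323 to 1962 ± 188 (−0.68 ± 0.117 SE in log2, adjusted p = 0.00195 by limma). *Ahrr*, the AHR repressor and itself a target, measured 12.1, 29.6, 18.3 and 20.4 in the controls and 5.78, 9.0 and 4.2 in the sgKrt19 tumors. It fell by 1.51 on the log2 scale (SE 0.388, adjusted p = 0.0146 by limma).

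*Tiparp*, a target that modifies AHR, fell from 785 ± 89.4 to 567 ± 114 (−0.48 ± 0.158 SE in log2, adjusted p = 0.0396 by limma). *Cyp1b1*, a cytochrome P450 target, measured 484 ± 122 and 337 ± 48.0 and did not pass (−0.50 ± 0.193 SE in log2, adjusted p = 0.069 by limma). *Cyp1a1*, the classic target, was at or under the floor of 3 reads in all 7 libraries. *Nqo1* and *Aldh3a1*, detoxifying enzymes that AHR and also NRF2 can induce, rose. *Nqo1* measured 155 to 282 in the controls and 874 to 1140 in the sgKrt19 tumors (2.25 ± 0.205 SE in log2, adjusted p = 7.27e-05 by limma). *Aldh3a1* rose by 0.70 on the log2 scale (SE 0.160, adjusted p = 0.00889 by limma). *Aldh3a1* was not called with library size as the only scaling (0.48), where the list had 1 call higher and 5 lower and a median of −0.61. *Ahrr* was not called without sgKrt19 replicate 8 (−1.29), and *Tiparp* was not called without sgScramble replicates 1, 2 or 4 or sgKrt19 replicates 6 or 8 (−0.50 to −0.33). Without sgKrt19 replicate 8 the list had 3 calls in all.

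The GCGTG letters stand in the promoter windows of *Ahrr*, *Tiparp*, *Cyp1b1* and *Cyp1a1* and not in that of *Nqo1*, in a table where 32.4% of windows hold them. Stretches from the first 4 are shown because their genes are the targets named above, with the motif in capitals, read on the gene's strand, so that CACGC is the motif on the other strand. They come from RefSeq GRCm38.p6 and lie at chr13:74292339-74292373 (minus), chr3:65528262-65528296 (plus), chr17:79715118-79715152 (minus) and chr9:57697544-57697578 (plus).
Ahrr: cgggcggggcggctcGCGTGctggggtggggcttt
Tiparp: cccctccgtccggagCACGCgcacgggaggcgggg
Cyp1b1: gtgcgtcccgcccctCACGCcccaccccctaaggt
Cyp1a1: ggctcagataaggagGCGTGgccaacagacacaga
Of these 4 genes *Ahrr* and *Tiparp* fell, *Cyp1b1* did not pass and *Cyp1a1* was at or under the floor.

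The interferon gamma input, that is, the cytokine, its receptor and the factors that relay it, was higher in part. Of 9 genes limma called 6 higher and 0 lower, beside 17.9% and 16.0% of all tested genes, and the median log2 fold change was 0.83. *Ifng* measured 40.9, 24.7, 22.8 and 29.7 in the controls and 187, 147 and 200 in the sgKrt19 tumors (2.57 ± 0.248 SE in log2, adjusted p = 9.67e-05 by limma). *Irf1*, a transcription factor that the cytokine induces, rose by 0.91 (SE 0.162, adjusted p = 0.00236 by limma) and *Socs1*, a feedback inhibitor of the signal, by 1.57 (SE 0.173, adjusted p = 0.000198 by limma). The kinases *Jak1* and *Jak2*, named after their values were seen, had log2 fold changes of −0.065 and −0.023 and did not pass (adjusted p = 0.666 and 0.876 by limma). In the annotation *Gm49751* covers 25.9% of the exon bases of *Ifng* on the same strand, so reads can be shared.

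Promoter stretches of *Irf1* and *Socs1*, chosen because they hold interferon letters, are shown beside *Kmo*, from RefSeq GRCm38.p6, with the motif in capitals. Another *Irf1* window and those of *Ifngr1*, *Ifngr2*, *Jak1* and *Jak2* hold neither motif. The window of *Ifng* and a window of *Irf8* hold TTCNNNGAA. That of *Irf1* (chr11:53769909-53769947, plus strand) holds TTCNNNGAA, the letters of 8.30% of windows, and that of *Socs1* (chr16:10785589-10785628, minus strand) holds the ISRE, the letters of 3.44%. The *Socs1* stretch holds 2 ISRE matches that overlap, and only the one nearer the start is in capitals.
Irf1: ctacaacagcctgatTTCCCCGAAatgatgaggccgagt
Socs1: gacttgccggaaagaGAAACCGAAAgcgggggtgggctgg
A match of letters is a description of the window and not a measured binding site.

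Library by library, *Ido1*, *Ido2* and *Wars* were all highest in sgKrt19 replicate 8 and lowest of the sgKrt19 tumors in replicate 5. T cell genes did not have that pattern: the sum of *Cd3d*, *Cd3e*, *Cd3g*, *Cd8a* and *Trac* was 4094, 4629 and 2422 in replicates 5, 6 and 8, so replicate 8 had the most *Ido1* and the least T cell RNA of the 3. *Ahr* was lowest in replicate 8. Among the controls, replicate 3 was lowest for *Ido1*, *Ido2*, *Ifng* and the T cell sum, which was 764, 767, 334 and 424 in replicates 1 to 4. With 3 and 4 libraries these orders are descriptions only.

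**Figure D4:**
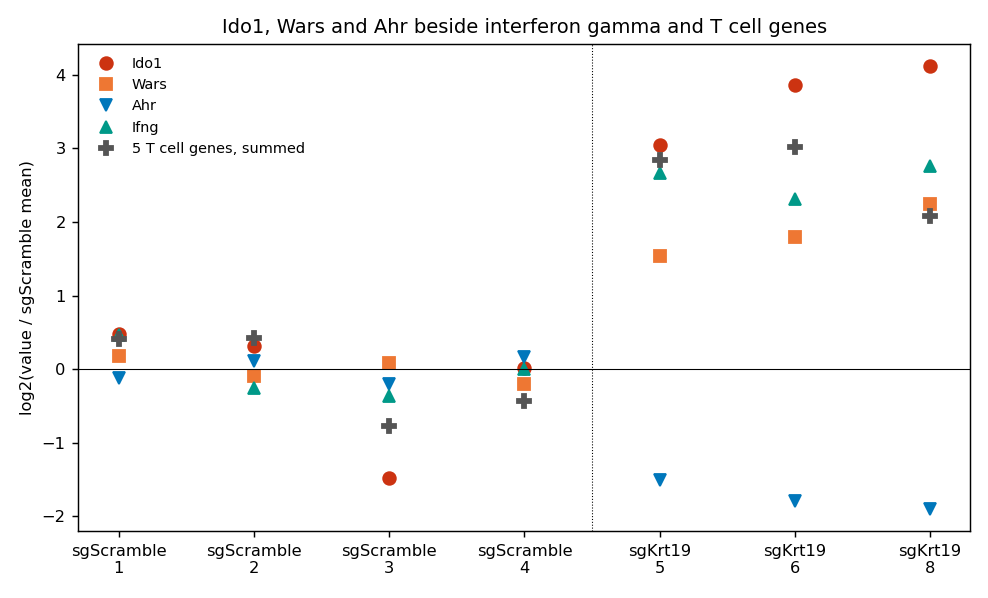
Log2 of the value over the sgScramble mean for *Ido1*, *Wars*, *Ahr*, *Ifng* and the sum of 5 T cell genes in each of the 7 libraries, with the groups divided by the dotted line. In sgKrt19 replicate 8 *Ido1* and *Wars* are at their highest, while the T cell sum is at its lowest for that group.

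The cell types that could carry these transcripts differed in part. Of all tested genes 17.9% were called higher and 16.0% lower, which is the background for the counts below. All 5 T cell genes were called higher in sgKrt19 tumors. Of 8 dendritic cell genes 2 were called higher. These were *Xcr1* (mean 24.0 in the controls and 72.3 in the sgKrt19 tumors) and *Clec9a* (46.9 and 85.7), named after their values were seen. The sum of the 8 overlapped at 1693 to 2181 in the controls and 1631 to 1820 in the sgKrt19 tumors. *Fscn1*, which was not called, was the largest part of it (means 1361 and 1088). Of 7 macrophage genes 2 were called higher and 1 lower (sums 28539 to 41234 and 35720 to 53277), and of 5 endothelial genes 3 were higher (2592 to 3704 and 4269 to 4779). For 5 epithelial genes, 3 of them called higher, the sums were 117279 to 158489 and 237921 to 247290. The keratins *Krt8* (means 55494 and 103416) and *Krt18* (49260 and 95589), both called higher, made up most of these sums. *Cdh1* was also called higher (25991 and 38248), while *Epcam* (910 and 913) and *Krt7* (6848 and 3473) were not called. These 5 were described singly after their values were seen. The 4 fibroblast genes had no call (32574 to 80543 and 40717 to 45821). The 4 hepatocyte genes, used because liver is rich in *Tdo2*, *Kmo* and *Haao*, had 3 calls lower (2020 to 4109 and 699 to 1040). The 3 B cell genes were not tested (14.9 to 36.6 and 6.94 to 13.0), and *Serpina1a* of the hepatocyte genes was at or under the floor in all sgKrt19 libraries. Skin keratinocyte and fat genes had no call (157 to 218 and 165 to 251, and 12.8 to 229 and 16.0 to 90.3), with *Krt1* at or under the floor in all libraries. All 4 muscle genes were called higher. The part of these cell types in the differences of the 9 genes was not tested.

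Transport of tryptophan and its products into cells was compared next. Of 9 listed carriers, 8 were tested (*Slc6a14* was not analysed here). Limma called 3 higher and 1 lower, beside 17.9% and 16.0% of all tested genes, with a median log2 fold change of 0.31. *Slc7a5* and *Slc3a2* form LAT1, the main carrier of large neutral amino acids. *Slc7a5* measured 2383, 2379, 1902 and 2331 in the controls and 3399, 5537 and 3075 in the sgKrt19 tumors (0.79 ± 0.189 SE in log2, adjusted p = 0.0109 by limma). *Slc3a2* rose from 6058 ± 233 to 7788 ± 842 (0.36 ± 0.110 SE in log2, adjusted p = 0.0301 by limma), but was not called without sgScramble replicates 2, 3 or 4 or sgKrt19 replicates 5 or 6, nor without a filter on low values, nor with library size as the only scaling (0.14), which gave the list 2 calls higher and 2 lower. *Slc1a5*, a glutamine carrier, rose from 1597 ± 80.7 to 3210 ± 536 (0.99 ± 0.128 SE in log2, adjusted p = 0.000427 by limma). *Slc36a4*, a tryptophan and proline carrier, fell by 0.91 (SE 0.212, adjusted p = 0.00972 by limma).

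In the rest of the kynurenine and NAD route no tested gene was called higher with all 7 libraries. Of 13 genes 12 were tested, and limma called 0 higher and 2 lower, with a median log2 fold change of −0.31. Of all tested genes it called 17.9% higher and 16.0% lower. *Afmid*, the formamidase that yields kynurenine after the first step, fell from 590 ± 62.4 to 380 ± 57.4 (−0.64 ± 0.144 SE in log2, adjusted p = 0.00839 by limma), though *Gm20708* shares 44.2% of its exon bases on the same strand. *Naprt*, which makes NAD from nicotinic acid, fell from 614 ± 106 to 333 ± 50.9 (−0.88 ± 0.165 SE in log2, adjusted p = 0.0033 by limma). *Qprt*, which takes quinolinic acid from the kynurenine route into NAD, measured 50.1 ± 8.13 and 67.4 ± 20.4 and did not pass (0.39 ± 0.265 SE in log2, adjusted p = 0.277 by limma). DESeq2 and the fit without sgKrt19 replicate 5 each called 4, and library size alone called 6. Without sgScramble replicate 1 the list had 1 call higher and 2 lower.

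Among the other fates of tryptophan, toward serotonin and amine breakdown, both monoamine oxidase genes fell. Of 7 genes 4 were tested, and limma called 0 higher and 2 lower, beside 17.9% and 16.0% of all tested genes. *Maoa* fell from 1080 ± 78.5 to 779 ± 80.3 (−0.47 ± 0.117 SE in log2, adjusted p = 0.0124 by limma) and *Maob* from 456 ± 56.6 to 310 ± 25.4 (−0.55 ± 0.143 SE in log2, adjusted p = 0.015 by limma). *Maob* was not called without sgKrt19 replicate 6, which left 1 call in the list. *Tph1*, which starts serotonin synthesis, measured 9.29, 12.8, 47.5 and 32.5 in the controls and 24.3, 29.0 and 41.0 in the sgKrt19 tumors, which overlap (0.53 ± 0.510 SE in log2, adjusted p = 0.439 by limma).

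The response to amino acid shortage, in which the kinase GCN2 senses uncharged tRNA and raises ATF4, had calls in both directions. Of 12 genes limma called 4 higher and 1 lower, beside 17.9% and 16.0% of all tested genes, with a median log2 fold change of 0.38. *Trib3* and *Asns*, targets of ATF4, rose by 0.76 (SE 0.190, adjusted p = 0.0126 by limma) and 0.73 (SE 0.176, adjusted p = 0.0109 by limma). *Psat1*, of serine synthesis, rose by 0.53 (SE 0.177, adjusted p = 0.043 by limma). *Eif2ak4*, which encodes GCN2, fell from 1140 ± 84.1 to 773 ± 62.2 (−0.56 ± 0.112 SE in log2, adjusted p = 0.00451 by limma). *Phgdh* and *Ddit3*, named beside them after their values were seen, had log2 fold changes of −0.0078 and 0.12 and did not pass (adjusted p = 0.972 and 0.571 by limma). Library size alone gave 1 call higher and 1 lower, with *Asns* (0.52) and *Psat1* (0.31) not called, and leaving out sgScramble replicates 2, 3 or 4 or sgKrt19 replicates 5 or 6 left 3, with *Psat1* not called in any of these fits.

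**Figure D5:**
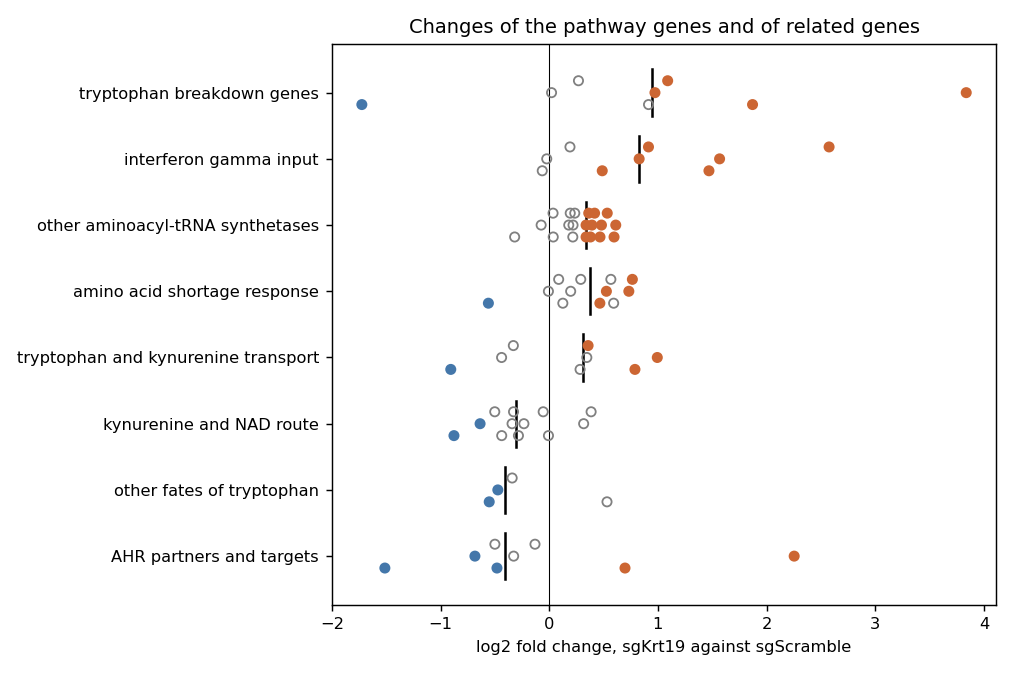
Log2 fold change of each tested gene, sgKrt19 against sgScramble, for the tryptophan breakdown genes and 7 lists of related genes. Filled points passed limma's adjusted p of 0.05 (orange higher, blue lower), open points did not, and black bars are list medians, which run from −0.41 for other fates of tryptophan to 0.94 for the tryptophan breakdown genes.

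The genes whose pattern over the 7 libraries was most like that of *Ido1* were found by the root mean square difference between log2(value + 1) profiles, each centred on its own mean, leaving out the 9 genes and symbols that are only model names. The closest were *Csprs* (0.355), *Gzma* (0.523), *Ifit1bl1* (0.571), *Chrm3* (0.650) and *Trbv3* (0.657). *Gzma* encodes granzyme A of killer lymphocytes and *Trbv3* a variable segment of the T cell receptor. *Csprs* measured 10.2, 11.9, 4.57 and 11.1 in the controls and 92.5, 98.0 and 175 in the sgKrt19 tumors, low in the same control and high in the same sgKrt19 tumor as *Ido1*. *Ifit1bl1*, of an interferon-induced family, measured 15.5 to 29.7 and 129 to 311. Of the 9 genes *Wars* was the next most like *Ido1*, at 1.16, with 249 tested genes, *Ido1* included, closer to it. *Ifit1bl1* has close copies that can share reads. The low counts in the controls of *Chrm3*, 1.83 to 2.79, and of *Trbv3*, 0.913 to 11.1, make their likeness uncertain.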

How the data were processed

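RNA of 7 subcutaneous tumors was sequenced by the study from TruSeq libraries. The labels name polyA RNA and the methods a guide for stranded total RNA. The authors deposited a table of normalized read counts, a signal made by dividing the reads per gene by a size factor per library. The submitters' processing notes name the build mm10, and the aligner, counting program and annotation are not given in the sources used here. Dividing each value by its library's smallest step gave whole reads for 100% of values (within 0.05 of a read). GENCODE M21 (GRCm38) held 97.74% of the gene identifiers and supplied positions and exon lengths.

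Genes reaching 10 in 3 or more libraries (21322) were fitted with limma 3.58.1 in R 4.3.3 on log2(value + 1), with group as the only term, a mean trend and Benjamini-Hochberg adjustment over all of them. The pseudocount understates changes of low genes. Alternatives were pseudocounts of 0.5 and 10, no filter, a mean of at least 50, library size or TMM scaling, edgeR 4.0.16 (7188 genes called) and DESeq2 1.42.0 on recovered reads, and each library left out. The script was tested on simulated data. The 9 genes and all lists were chosen with earlier results of these data known. The text names the 9 genes, up to 4 called genes with the largest change per related list, 11 related genes listed by role, the 5 genes most like *Ido1*, and *Krt19*. Floors cover counting error only. Some genes of the lists are counted but not reported here by name.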

Additional observations from a re-analysis of the deposited data

Results flagged for a closer look

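Among 41 named genes, the 4 sgScramble libraries were checked for a highest or lowest value standing far from the other 3 by Dixon's criterion, which chance meets in about 1 of 20 genes. It was met by 4 genes. *Kynu* was 46.4 in sgScramble replicate 4, above the other 3 and nearest of the controls to the sgKrt19 tumors. *Slc7a5* was 1902 in sgScramble replicate 3, below the others, and this control also had the least *Ido1* and the most muscle RNA. *Slc1a5* was 1476 in sgScramble replicate 4, below the others, and *Ifit1bl1* was 29.7 in sgScramble replicate 1, above them.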

How the results depend on the processing

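*Ido1*, *Wars*, *Kmo* and *Ahr* kept their direction in all 15 alternatives, and no named gene reversed a called change. With library size as the only scaling, 6 genes of the kynurenine and NAD route, 2 synthetases and 2 shortage response genes were called. DESeq2 called 4 of the kynurenine and NAD route, and the fit without a filter called 7 synthetases. With each library left out in turn, calls ran from 2 to 4 for the kynurenine and NAD route, 1 to 2 for other fates of tryptophan, 3 to 5 for AHR partners and targets, 4 to 10 for the synthetases, 3 to 6 for the shortage response, and 4861 (without sgScramble replicate 2) to 7714 for all genes. The causes were not tested, and the fits that left out a library also had fewer libraries. Over the related genes named or listed, 471 comparisons with an alternative had the same outcome as the main fit. That outcome was called or, as for *Qprt* and *Tph1*, not called. Another 30 lost a call and 2 gained one, both *Cyp1b1*. No paired analysis was possible because the groups share no replicate number. With 4 and 3 libraries, small differences such as those of *Haao* and *Ido2* are limited by the spread between tumors, and *Tdo2* by depth. Single reads limit the separation of overlapping genes.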
